A study of Rattus norvegicus with 138 samples.

Results

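Unrepaired volumetric muscle loss (VML) was compared with control muscle 28 days after injury, to describe which genes of the rat tibialis anterior (TA, the ankle-lifting muscle of the shin) were still away from control levels late after injury. The 4 injured muscles came from rats 73, 74, 81 and 82, and the 4 control muscles were the left and right TA of rats 37 and 38. These 8 libraries, 1 for each muscle, were chosen by their labels (injury VML, no running, no repair, 28 days, against Sham at day 0) among 73 libraries from rats that did not run. A library with fewer than 7000 symbols above 1 TPM (a transcript's length-adjusted share of its library) was to be dropped, which removed 0 of the 8 and 5 of the 73.

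All rats were adult male Lewis rats that did not run. In the injured TA a full-thickness plug had been removed from the middle of the muscle with a 6 mm punch, and nothing was put in its place. The labels call the controls Sham, while the text of the study calls them unoperated in one place and uninjured in another. Control rats carry one series number and operated rats another, so the series and the injury cannot be told apart in this comparison. The contralateral TA of 4 operated rats at 28 days (rats 73 and 74 without repair, and rats 75 and 76 whose other leg had received a minced muscle graft) shares its rat series with the injured muscles and was used as the other reference. The study describes the profiled tissue as unfractionated and from the injured site, and in such bulk samples fewer cells of a type and less RNA per cell cannot be told apart. The 4 control muscles came from 2 rats, so control spread covers fewer animals than muscles.

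The libraries held muscle, as labelled. The 19 adult fast fibre genes in the table (fast myosin, actin, creatine kinase and their partners) summed to at least 442500 scaled TPM in control muscle and at least 261100 in injured muscle. Scaled TPM is TPM divided by the library's median-of-ratios size factor, and all levels below are on that scale. Between 10027 and 10208 symbols exceeded 1 TPM in injured libraries, 8912 to 9110 in contralateral and 7866 to 8914 in control libraries. The right control muscle of rat 38 stood apart. Its 20 highest symbols took 52.7% of TPM against at most 44.3% in the other control muscles, and its size factor was 0.398, the lowest of the control group, whose highest was 0.741. Counts for the fast and slow fibre, calcium handling, glycolysis, respiratory chain, myogenic and atrophy lists below are given also without it.

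A TA fibre is a cell kept under the control of one motor nerve ending. The acetylcholine receptor is held at that junction, and after loss of nerve contact or during regeneration fibres express the receptor's fetal γ subunit (Chrng), its other subunits, the receptor kinase Musk and the myogenic factor Myog along their length. Myog and related factors bind the E-box, a short DNA motif found in many muscle promoters. In wounded muscle, macrophages clear debris and fibro-adipogenic progenitors lay down collagen, proteoglycans and elastic fibres. In a small injury these programmes fade as fibres regrow, whereas after VML the defect is known to fill with scar.

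Promoters are shown for the receptor subunits and Musk whose printed window holds the motif named below, so the choice rests on the match. Of the 11 junction and denervation genes called higher (below), 8 had a promoter (250 bases before to 50 after the annotated start) in the RefSeq table of build GRCr8. The motif CAGCTG, an E-box that reads the same on both strands, was found in 5 of these 8 (Chrna1, Chrng, Chrne, Musk and Gadd45a), against 15.1% of all 33469 promoters. In Gadd45a the match lies after the start and is not printed. Chrnd, Runx1 and Myog had 0 matches, which says only that these letters are not in their windows. The 120 bases that end just before the start are printed 5′ to 3′ for 4 of the genes, with the motif in capitals. They lie at chr3:78877354-78877473 (minus strand) for Chrna1, chr9:95325864-95325983 (plus strand) for Chrng, chr10:55834155-55834274 (minus strand) for Chrne and chr5:77853616-77853735 (plus strand) for Musk. The match starts 75 and 27 bases before the start in Chrna1, 26 in Chrng (where another match spans the start and is not printed in full), 116 in Chrne and 79 in Musk. A match describes these letters and is no evidence of binding.
Chrna1: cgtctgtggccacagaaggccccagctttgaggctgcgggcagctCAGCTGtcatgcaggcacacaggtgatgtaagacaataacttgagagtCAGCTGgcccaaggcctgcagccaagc
Chrng: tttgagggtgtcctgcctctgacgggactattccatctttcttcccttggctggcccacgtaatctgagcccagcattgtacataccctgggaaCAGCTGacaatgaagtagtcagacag
Chrne: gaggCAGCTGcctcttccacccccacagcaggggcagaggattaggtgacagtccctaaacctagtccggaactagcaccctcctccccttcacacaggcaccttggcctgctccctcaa
Musk: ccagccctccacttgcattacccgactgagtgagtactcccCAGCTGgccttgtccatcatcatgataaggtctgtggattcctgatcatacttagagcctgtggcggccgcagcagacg

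MicroRNA loci were also among the genes called higher, and some of them were higher in both legs. Of 195 such loci tested, 37 were called higher and 0 lower, against 11.2% and 3.16% of all tested genes. In 12 of the 37 the 4 injured muscles did not overlap the 4 control muscles, against 1576 of the 1612 genes called over the whole table. The mature sequences of 3 of the 12 are printed from RefSeq (GRCr8), with the seed (bases 2 to 8) in capitals: the locus with the largest difference among the 12, the locus known for myeloid cells, and a locus known for muscle. They differ in seed. The values come from fragments assigned to the hairpin locus in TruSeq libraries, so mature miRNA was not measured.
rno-miR-3120: cACAGCAAguguagacaggca
rno-miR-223-3p: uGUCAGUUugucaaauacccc
rno-miR-133b-3p: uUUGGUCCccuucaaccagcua

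Mir3120 (mature sequence at chr13:77121672-77121692, minus strand) lies opposite the gene of another miRNA, and strand was not stated for these libraries, so RNA of the opposite strand may be counted in it. It measured 16.9, 0, 15.8 and 0 scaled TPM in control muscle and 90.8, 177.0, 49.3 and 169.3 in injured muscle (log2 fold change 4.71, SE 0.67, adjusted p from limma 2.48e-08). Mir223 (chrX:65151450-65151470, plus strand) was listed at 0 in the 4 control muscles and at 36.8, 7.74, 7.34 and 30.9 in injured muscle, while 2 of 4 contralateral muscles were also at 0 and the others at 13.5 and 33.2. Both loci were also called higher in contralateral muscle against control (log2 fold changes 2.44 and 2.24, adjusted p 0.0173 and 0.042), where Mir3120 measured 15.5 to 29.4, so they were not higher in the injured leg alone. With control muscle at 0, the fold change of Mir223 depends on the 1 added to scaled TPM before the log. Mir133b (chr9:30594629-30594650, plus strand) rose from 12.3 to 32.3 in control muscle to 76.0 to 203.8 in injured muscle (log2 fold change 2.68, adjusted p 7.01e-07), with 21.4 to 37.1 in contralateral muscle, where it was not called. For injured against contralateral muscle the adjusted p values were 0.0031 for Mir3120, 0.0209 for Mir223 and 4.2e-05 for Mir133b.

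Injured muscle at 28 days still differed from control in 1612 of 11213 tested genes, which is 14.4%. A gene was called when its Benjamini-Hochberg adjusted p in limma was under 0.05 and its log2 fold change, fitted on log2(scaled TPM + 1), was beyond 1. Of the called genes 1258 were higher (11.2% of tested genes) and 354 lower (3.16%), and the 4 injured and 4 control muscles did not overlap in 1576. The median log2 fold change of all tested genes was 0.05. With TPM as deposited that median was 0.52, and 2385 genes were called higher and 24 lower, so the number of lower genes depends on the scaling. Of the 1258 higher genes 1255 were also called higher with TPM as deposited, and of the 354 lower genes 24 were also called lower. Without the right control muscle of rat 38, 1434 genes were called, 256 of them lower.

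Many of the differences, but not all, were also called against the other leg. Against contralateral muscle at 28 days 1015 genes were called (9.05%), 829 of them higher (7.39%) and 186 lower (1.66%), and, with the injured muscles shared by both comparisons, 948 genes passed the test with either reference and with the same sign, 790 higher and 158 lower. These are 58.8% of the genes called against control and 93.4% of those called against contralateral muscle. Contralateral muscle itself differed from control in 70 genes (0.624%), 65 of them higher. That comparison uses the same 4 control muscles as the comparison of injured muscle with control. The graft rats' contralateral muscles are in this reference, and they were not compared with the contralateral muscles of the unrepaired rats.

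Sln (sarcolipin, a small inhibitor of the calcium pump of the sarcoplasmic reticulum) had the largest difference. It measured 31.8, 23.4, 44.7 and 37.1 scaled TPM in control muscle and 3272, 2444, 5692 and 2827 in injured muscle (log2 fold change 6.62, SE 0.31, adjusted p 1.87e-24). Contralateral levels were 23.3 to 75.9, against 23.4 to 44.7 in control muscle. Ankrd1 (a titin-binding ankyrin repeat protein induced by strain) rose from 6.43, 6.26, 9.19 and 13.4 to 370.4, 431.7, 1057 and 393.4 (log2 fold change 5.75, SE 0.33). Cdkn1a (p21, an inhibitor of cyclin-dependent kinases) rose from 6.98, 9.12, 4.90 and 7.01 to 218.5, 273.0, 426.9 and 329.6 (5.27, SE 0.30). In each of these 3 genes rat 81 was the highest injured muscle, and the injured and control muscles lay far apart.

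Clrn1 (clarin 1, a membrane protein known from sensory hair cells) was listed at 0 in all 4 control muscles and in 3 of 4 contralateral muscles. In injured muscle it measured 50.6, 51.4, 115.5 and 56.4 scaled TPM (adjusted p 5.55e-24), and no fold is given against 0. Scd (stearoyl-CoA desaturase, which makes monounsaturated fatty acids) rose from 2.85 to 4.77 in control muscle to 105.8, 92.5, 213.3 and 143.3 (log2 fold change 4.79). Klk1 (a tissue kallikrein, a serine protease) rose from 0.53 to 1.19 to 70.9, 48.9, 69.3 and 96.3 (5.20). Tnnt2 (the cardiac and developmental troponin T) rose from 1.56 to 2.81 to 66.9, 71.3, 102.6 and 63.3 (4.61). The 4 genes were called against contralateral muscle as well, and Clrn1, Scd and Tnnt2 had the same rat, 81, as their highest muscle.

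Among the rest of the 20 largest increases were matrix genes and membrane proteins. Means rose from 3.77 ± 0.88 (SD, n = 4) to 287.9 ± 134.8 for Postn (periostin, a matricellular protein), from 1.59 ± 0.60 to 84 ± 19.5 for Sfrp4 (a secreted Wnt antagonist) and from 2.18 to 100.9 for Cilp (a cartilage and scar matrix protein). Sfrp4 was also called higher in contralateral muscle against control (log2 fold change 1.56, SE 0.34, adjusted p 0.00224). Aspn, Cthrc1, Col1a1 and Mfap4, which belong to collagen and elastic matrix, had log2 fold changes of 4.78, 4.75, 4.60 and 4.42. Emb (embigin, a transporter chaperone) rose from 0.76 to 64.8 and Dclk1 (a doublecortin-like kinase) from 0.55 to 51.1. Tmem158, Gpnmb (a glycoprotein of lipid-laden macrophages) and Ctxn3 had log2 fold changes of 4.99, 4.46 and 4.35. With Mir3120 these 20 genes kept their calls under every alternative that was run for them.

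Hmgn5 (a nucleosome-binding protein) had the largest decrease, and was lower in both legs. It measured 18, 11.3, 14.8 and 6.38 scaled TPM in control muscle, was listed at 0 in the 4 injured muscles, and was at 2.41, 2.83, 0 and 0 in contralateral muscle (contralateral against control, log2 fold change -2.76, adjusted p 6.12e-04). Odf3l2 was lower in contralateral muscle too (-1.07 there, -2.36 in injured muscle). The next gene, Tpx2 (a spindle assembly factor), fell from 45.6, 37.3, 72.9 and 46.6 to 4.15, 6.38, 4.68 and 8.37 (-2.90, SE 0.25), with 39.1 to 55.3 in contralateral muscle.

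Several of the other genes among the 15 largest decreases whose groups did not overlap are known from muscle fibres. Tuba8 and Tuba4a (α-tubulins of muscle) fell by 2.15 and 1.99 on the log2 scale, Lmod1 (leiomodin, an actin nucleator) by 2.09, and Mylk2 (the skeletal myosin light chain kinase) by 1.90. Lpin1 (lipin 1, a phosphatidate phosphatase and coactivator) fell from 101.1 to 139.2 scaled TPM in control muscle to 24.9 to 41.1 (-1.83, SE 0.25). Dusp26, Cib2, Cacng7 and Nrtn (neurturin, a neuron survival factor) had log2 fold changes of -2.15, -2.10, -1.83 and -1.76, and Susd4 fell from a mean of 50.6 to 12.2. Chac1 and Slc25a25 had -1.92 and -1.76, and Slc25a25 was no longer called once both muscles of rat 37 were left out (-0.87). The 15 genes kept their calls with TPM as deposited, and 6 of them lost the call when low-complexity libraries were kept in. Tuba8 and Tuba4a were highest in the right control muscle of rat 38, at 1141 and 2584 against 404.1 to 484.7 and 791.1 to 1063 in the other control muscles, and without that muscle they fell by 1.83 and 1.64.

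**Figure D1:**
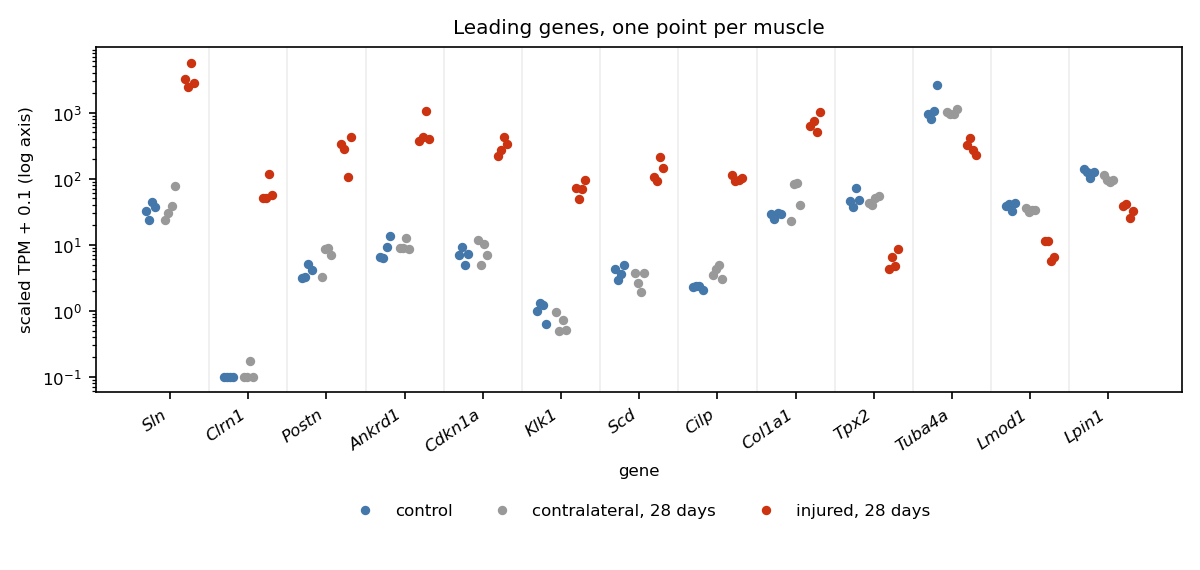
Scaled TPM (plus 0.1, log axis) of 13 genes among the largest differences in each control, contralateral and injured muscle at 28 days, 1 point per muscle. The 4 injured muscles lie above the controls for Sln to Col1a1 and below them for Tpx2 to Lpin1, while contralateral muscles lie near the controls, and Tuba4a has 1 high control muscle.

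Genes of the neuromuscular junction and of denervated fibres were called higher in part. In this list 11 of 21 tested genes were called higher and 0 lower, against 11.2% and 3.16% of all genes, and the median of the list was 1.89 on the log2 scale. The same counts, 11 and 0, were found against contralateral muscle, where the median was 1.82, and in each of the 8 fits that left out 1 muscle, while with TPM as deposited 18 were called higher (median 2.0). Summed over the 22 genes in the table, the level was 329.7 to 386.2 in control, 354.4 to 371.7 in contralateral and 941.6 to 1391 in injured muscle. No gene of the list was called between contralateral and control muscle.

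Among the receptor subunits, Chrna1 (α1, which binds acetylcholine) rose from 7.02, 8.08, 5.48 and 9.35 to 111.2, 118.0, 239.2 and 143.3 scaled TPM (log2 fold change 4.13, SE 0.39). Chrng (the fetal γ subunit) was at or near 0 in control muscle, with a highest value of 0.30, and measured 14.2, 14.7, 24.1 and 16.6 in injured muscle (adjusted p 4.83e-15). Chrne (ε, which replaces γ in adult junctions) rose as well, from 8.31 to 10.7 to 39.9, 35.3, 48.5 and 45.5 (2.10, SE 0.20). Chrnd (δ) had a log2 fold change of 3.44, while the β1 subunit gene Chrnb1 measured 41.8 in control and 56.5 in injured muscle (0.40, SE 0.22) and was not called. Per gene length, the injured muscles thus held more Chrne than Chrng transcript in each of the 4 muscles.

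Among the organisers of the junction, Musk (the agrin-activated kinase) rose from at most 0.73 to 8.11, 7.04, 13.7 and 9.0 scaled TPM (2.82, SE 0.28). Its partners Lrp4, Agrn and Colq had log2 fold changes of 0.80, 0.71 and 0.75 and were not called. Rapsn and Dok7, which anchor the receptor and activate Musk, measured 32.1 and 24.6 in control and 29.2 and 19.3 in injured muscle. Known denervation-responsive genes were called: Runx1 (2.52), Gadd45a (2.75), Ncam1 (3.09) and Sema3a (1.89). Rat 81 was the highest muscle in 10 of the 11 called genes of the list.

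Myogenic genes split. Of 22 tested regulators and satellite cell genes, 6 were called higher and 0 lower, against 11.2% and 3.16% of all genes. The median was 0.42 on the log2 scale. Without the right control muscle of rat 38 the counts were 5 and 0. With TPM as deposited they were 9 and 0, where 2385 of all 11213 genes were called higher. Myog (myogenin, the differentiation factor) rose from 6.74, 7.15, 11.1 and 6.13 to 108.4, 117.3, 188.8 and 125.7 (3.95, SE 0.30), and Tmem8c (myomaker, which fuses myoblasts) from at most 0.30 to 20.2, 16.8, 29.5 and 22.9 (4.28, SE 0.28). Myf5, Msc and Dlk1 had 1.19, 2.16 and 3.30. Pax7 (the satellite cell marker) was low in both groups, 0.81 and 2.44 on average (0.94, SE 0.19), and Myod1 and Myf6 measured 49.3 and 166.8 in control and 69.0 and 230.1 in injured muscle, below the threshold for a call.

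**Figure D2:**
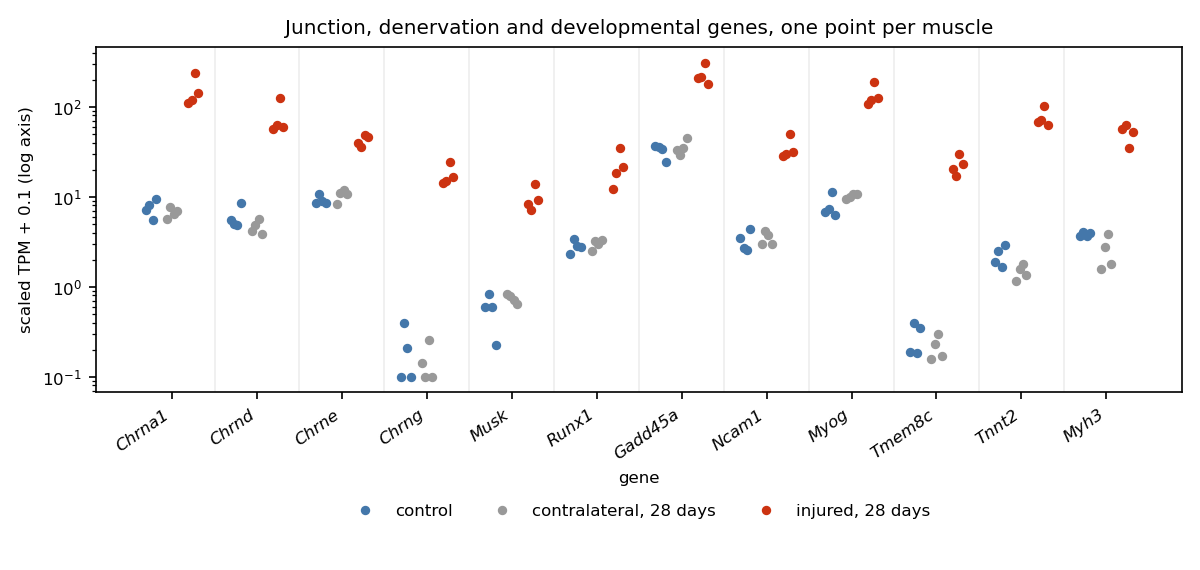
Scaled TPM (plus 0.1, log axis) of 12 junction, denervation, myogenic and developmental sarcomere genes in each control, contralateral and injured muscle at 28 days, 1 point per muscle. The injured muscles lie above both other groups for each gene, and rat 81 gives the highest injured point for Chrna1 (239.2), Chrng (24.1) and Myog (188.8) but the lowest for Myh3 (34.2).

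Developmental and cardiac-type sarcomere genes were called higher in 6 of 10 tested members (median 1.37, and 1.64 against contralateral muscle, also 6 called), against 11.2% of all genes. Their summed level was 1513 to 2228 in injured and 709.6 to 1092 in contralateral muscle. In control muscle it was 910.7 to 1897, highest in the right muscle of rat 38, so the injured and control sums overlapped. Myh3 (embryonic myosin) rose from 3.53 to 3.93 to 56.4, 62.3, 34.2 and 52.6 scaled TPM (3.44, SE 0.38), and Myh8 (perinatal myosin) from 10.4 to 16.5 to 37.7, 35.5, 29.5 and 32.6 (1.41, SE 0.27). Actc1 (cardiac actin) and Myl4 (atrial light chain) had 2.81 and 1.95. Beside adult myosin these levels were small: in injured muscle Myh4 (the fastest adult myosin, type IIB) averaged 12870.

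The slow fibre list moved with single muscles and with the scaling. Of 13 tested genes 3 were called higher (Tnni1, Casq2 and Csrp3, the slow troponin I, the slow and cardiac calsequestrin and a Z-disc LIM protein) and 0 lower. The median was 0.15, and of all genes 11.2% were called higher and 3.16% lower. With TPM as deposited 5 were called higher (median 0.75), as were 2385 of all 11213 genes. Their summed level was 5243, 5797 and 5350 in rats 73, 74 and 81 and 1015 in rat 82. In control muscle it was 3179, 3123 and 2642, and 6791 in the right muscle of rat 38. Myh7 (slow myosin) measured 279.3, 247.6, 250.1 and 3.91 in the same order of injured muscles, and Tnnt1 477.7, 523.9, 448.6 and 25.2. Without rat 82 the median was 0.87 and 5 genes were called higher, and without the right control muscle of rat 38 the median was 0.48 and 3 were (Tnni1 1.91, Casq2 2.13 and Csrp3 1.88).

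Adult fast fibre genes were lower on the scaled values. In this list 10 of 19 genes were called lower and 0 higher (median -1.12), against 3.16% and 11.2% of all genes. With TPM as deposited, however, 1 was called lower (median -0.44), and without the right control muscle of rat 38, 6 were (median -0.81). Myh4 fell from 38730, 32310, 32150 and 52570 to 12990, 14610, 8494 and 15390 (log2 fold change -1.60, SE 0.31), and Actn3 (the fast-fibre α-actinin) from 11920, 9651, 10470 and 29840 to 4475, 4519, 3063 and 5046 (-1.71, SE 0.34). Without the right control muscle of rat 38 the log2 fold changes were -1.47 and -1.36. Both genes were called lower against contralateral muscle too (-1.35 and -1.21), among 5 genes of the list (1.66% of all genes there). Actn3 is the gene of the list that kept its call with TPM as deposited (-1.03). Summed over the list, the level was 506000, 442500, 472300 and 1033000 in control muscle, 482900 to 502800 in contralateral muscle and 261100 to 302100 in injured muscle, so the groups did not overlap but 1 control muscle lay far above the other 3.

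Calcium handling genes were called in both directions. The share called higher was near the 11.2% of all genes, and 3.16% of all genes were called lower. The median of the list was -0.54, and 0.13 with TPM as deposited. Besides Sln and Casq2, called higher, the fast calcium pump Atp2a1 (-1.48), the voltage sensor Cacna1s (-1.44) and the junctophilin Jph2 (-1.14) were called lower among 17 genes of the list. These 3 lower calls were not made with TPM as deposited, where their log2 fold changes were -0.80, -0.77 and -0.46, and were made against contralateral muscle (-1.19, -1.08 and -1.08) and without the right control muscle of rat 38 (-1.21, -1.13 and -1.03). The slow pump Atp2a2, inhibited by the same family of peptides, measured 121.6 in control and 191.3 in injured muscle (0.63, SE 0.22, and 0.82 without that control muscle) and was not called.

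Energy metabolism lists differed in how many genes were called lower on the scaled values. In the glycolysis and glycogen list 13 of 19 genes were called lower (median -1.15), 8 without the right control muscle of rat 38, 8 against contralateral muscle, and 0 with TPM as deposited (median -0.47). Aldoa (aldolase A) fell from 34680, 29450, 29610 and 78660 to 14630, 14840, 9982 and 13670 (-1.58, SE 0.31). Pygm (glycogen phosphorylase) fell by 1.45 and Pfkm (phosphofructokinase) by 1.30 on the log2 scale. Without that control muscle the log2 fold changes were -1.27 for Aldoa, -1.23 for Pygm and -1.14 for Pfkm. In the respiratory chain 6 of 36 subunits were called lower (median -0.82, against 3.16% of all genes), 1 without that control muscle, 1 against contralateral muscle (1.66% of all genes there) and 0 with TPM as deposited (median -0.14). Leaving out each other muscle in turn gave between 2, without rat 82, and 12, without the left muscle of rat 38, with 11 without the right muscle of rat 37 and 10 without rat 73. Of 20 fatty acid oxidation genes 0 were called by limma, although 13 had an unadjusted and 11 an adjusted p under 0.05 with a fold change inside the limit. Their median changed sign with the scaling, from -0.49 to 0.18 with TPM as deposited.

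**Figure D3:**
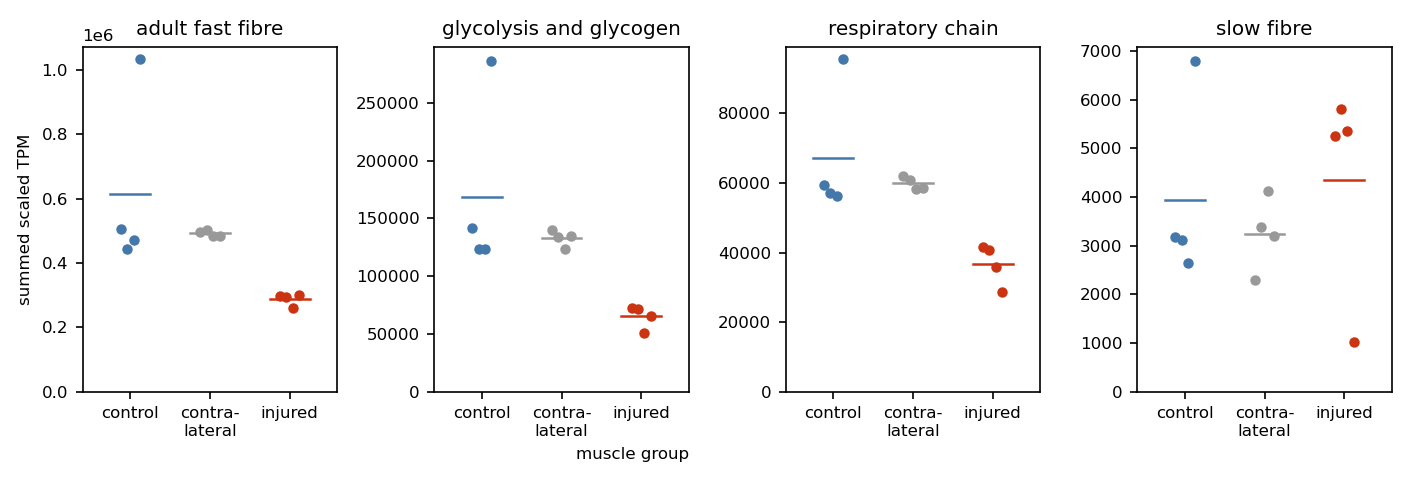
Summed scaled TPM (axes from 0) of the adult fast fibre, glycolysis and glycogen, respiratory chain and slow fibre lists in each muscle, with the group mean as a line. The injured muscles lie below the others in the first 3 panels, the right control muscle of rat 38 lies far above the other controls in each panel, and in the slow fibre panel the injured muscle of rat 82 is at 1015 against 5243 to 5797 in the other injured muscles.

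Few atrophy genes were called, and the share called higher was near the 11.2% of all genes (3.16% of all genes were called lower). Of 17 tested (median -0.32), Cdkn1a and Gadd45a were called higher and Fbxo32 (atrogin-1, a ubiquitin ligase of atrophy) and Mstn (myostatin, a brake on muscle growth) lower. Fbxo32 measured 144.9 to 215.0 in control and 62.9 to 105.2 in injured muscle (-1.12, SE 0.40), and Mstn 27.8 to 35.3 and 8.82 to 19.3 (-1.24, SE 0.27). Neither lower call was made with TPM as deposited (-0.44 and -0.59), where 4 genes were called higher and 0 lower and the median was 0.35. The number called lower was 1 without rat 82, where Fbxo32 was not called, and 3 without the right control muscle of rat 38. Trim63, the other main atrophy ligase, measured 329.0 and 250.3 on average (-0.40, SE 0.31). In the muscle stress list of 15 genes Ankrd1, Mustn1 (2.38) and Csrp3 (1.91) were called higher and Nrap (-1.02) lower, the last not with TPM as deposited (-0.34). The call of Nrap was also lost without the right control muscle of rat 38 (-0.87) and without rat 73 or rat 82, and 3 genes of the list were called lower without rat 81.

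Matrix genes were called higher in each matrix list, where 11.2% of all genes were called higher. Of 9 tested fibrillar collagen genes 8 were called higher (median 2.52), and their summed level was at most 158.6 in control muscle and 1959 to 3330 in injured muscle. Col1a1 rose from 29.1, 24.4, 29.7 and 28.6 to 621.9, 742.7, 511.7 and 1020 (4.60, SE 0.36), with 22.8 to 84.6 in contralateral muscle. Col3a1 had a log2 fold change of 4.20, and Col11a1, known from cartilage, had 2.24. The basement membrane list was called higher in 6 of 11 genes (median 1.19) and the fibril-associated list in 4 of 5 (median 2.68).

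Proteoglycan, elastic fibre and matricellular genes were called higher in most members, against 11.2% of all genes. All 9 tested small leucine-rich proteoglycan genes were called higher (median 2.57), led by Aspn (4.78), Lum (lumican, 3.96) and Bgn (biglycan, 3.8). Against contralateral muscle 6 of the 9 were called (median 1.60), and Dcn (decorin), also called higher in contralateral muscle against control, measured 140.3 in control, 293.8 in contralateral and 549.7 in injured muscle. Among elastic fibre genes 9 of 12 were called higher, with Eln (elastin) at 5.57 and 47.6 (2.90, SE 0.21). Among matricellular genes 15 of 18 were called higher (median 2.75), including Thbs4 (3.75), Fn1 (fibronectin, 2.90) and Tnc (tenascin C, 3.02).

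Enzymes that build and cut matrix were called higher in part, in shares above the 11.2% of all genes. Of 19 collagen processing and crosslinking genes 14 were called higher, among them the crosslinking oxidases Loxl1 (3.62), Lox (3.13) and Loxl2 (2.95). Of 17 metalloproteinases and inhibitors 8 were called higher: Mmp14 (3.49), Mmp2 (3.28) and Timp1 (2.52) were among them. Mmp12 (macrophage elastase) was called on 1 muscle, with 0.44, 0.57 and 0.92 in 3 injured muscles and 18.9 in rat 82. The fibroblast and fibro-adipogenic list was called higher in 11 of 14 genes, with Pdgfra at 2.06 and 10.7 (1.95, SE 0.16) and S100a4 at 38.5 to 53.6 and 434.6 to 766.0 (3.67, SE 0.23). Pi16, of the same list, was as high in contralateral as in injured muscle (19.2 and 20.9, against 7.08 in control).

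Members of the TGF-β and activin list went both ways. Of 23 genes 7 were called higher (against 11.2% of all genes) and Mstn lower, 17 had an adjusted p under 0.05, and the median was -0.01 (0.55 with TPM as deposited, where Mstn was not called). Tgfb1 (the ligand) rose from 4.62 to 7.46 to 18.6 to 27.5 (1.82, SE 0.18), and the receptors Tgfbr2 and Tgfbr3 had 1.13 and 1.41. Among its extracellular partners Fst (follistatin, which binds myostatin and activin) had 2.62 and Fstl1 2.70. Gdf11, the ligand closest to myostatin, rose from 2.13 to 4.41 to 8.76 to 19.3 (1.72, SE 0.15) while Mstn was lower.

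**Figure D4:**
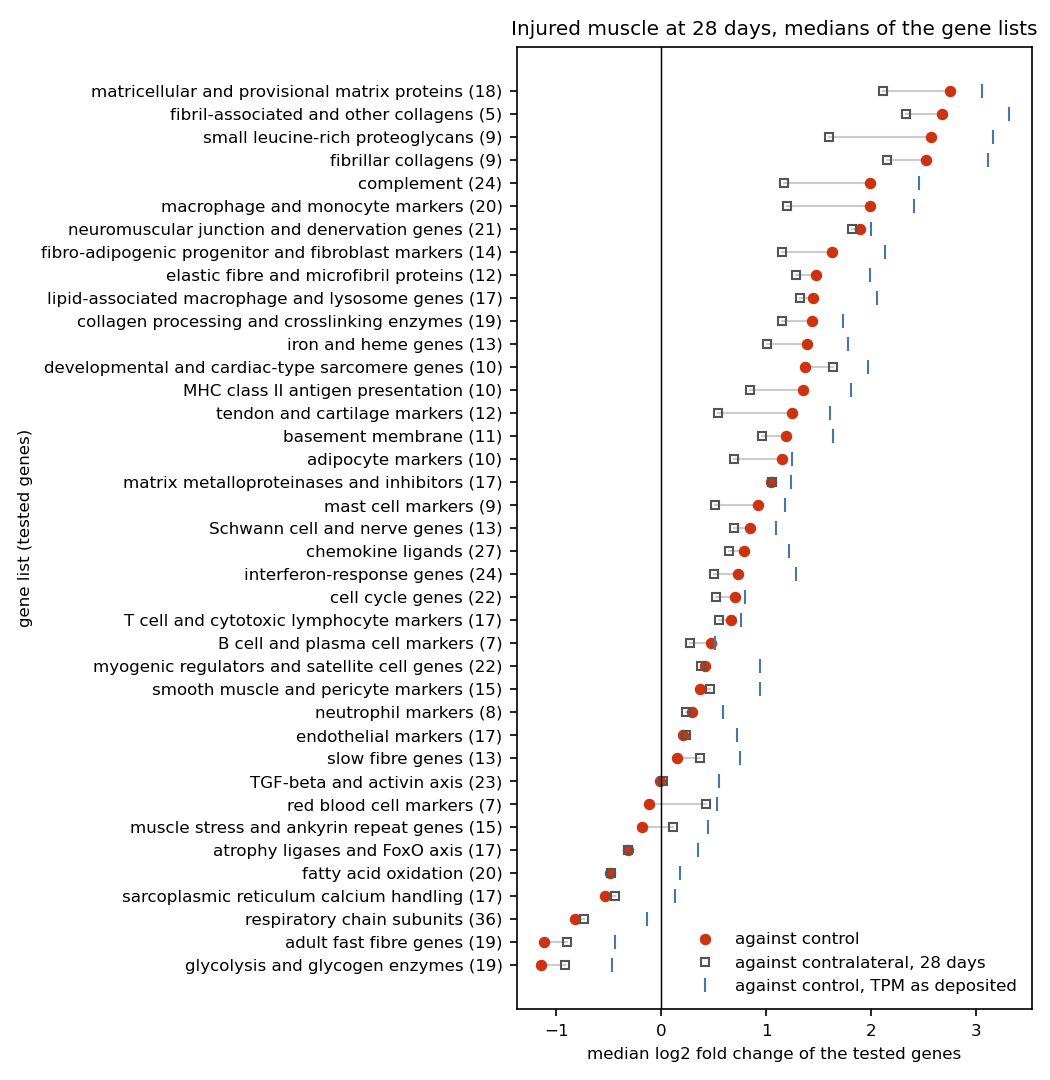
Median log2 fold change of the tested genes in each list for injured muscle at 28 days, against control (filled circles), against contralateral muscle (open squares) and against control with TPM as deposited (vertical marks). The matricellular list (2.75) lies highest and the glycolysis (-1.15) and fast fibre (-1.12) lists lowest, and TPM as deposited lies to the right in each list and moves fatty acid oxidation from -0.49 to 0.18.

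Macrophage markers remained above control in each of the 20 tested genes, with a median of 1.99 (1.2 and 15 called against contralateral muscle). Of all genes 11.2% were called higher against control and 7.39% against contralateral muscle. Summed levels were 80.9 to 104.7 in control, 166.7 to 195.1 in contralateral and 469.7 to 1069 in injured muscle, so contralateral muscle also lay above control, where 3 of the genes were called. Cd68 (a lysosomal protein of macrophages) measured 1.04 to 2.16 in control muscle and 15.5, 17.5, 13.5 and 58.0 in rats 73, 74, 81 and 82 (3.13, SE 0.31). Lyz2 (lysozyme) measured 167.6, 228.6, 178.5 and 613.3 in the same order. The highest injured muscle was rat 82 in both, the muscle with the low slow fibre genes.

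The same rat stood out in genes of lipid- and iron-handling macrophages. Gpnmb measured 56.3, 97, 56.2 and 478.6 in rats 73, 74, 81 and 82 against 3.08 to 5.89 in control muscle, and Apoe (apolipoprotein E) 896.5, 1278, 812.0 and 3622 against 93.7 to 120.7. Of 17 genes of the lipid-associated list 11 were called higher (against 11.2% of all genes), and 9 to 11 when each muscle in turn was left out. Of 13 iron and heme genes 7 were called higher, with Ftl1 (ferritin light chain) at 500.1, 592.9, 407.9 and 1712 against 123.7 to 227.0, and Hmox1 (heme oxygenase) and Slc40a1 (the iron exporter) at 2.06 and 2.29. Tfrc (the transferrin receptor) was called lower (-1.22), a call not made with TPM as deposited (-0.55), against contralateral muscle (-0.77) or without rat 82.

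Complement genes were called higher in 14 of 24 (median 1.99), against 11.2% of all genes. The classical pathway genes C1s (3.11), C2 (3.27) and C1qa (2.58) and the regulator Serping1 (2.05) were among them, and Cfd (adipsin) rose from 5.80 to 10.9 to 53.2 to 103.8 (3.14). C3, the central component, was at 0.049 and 0.46 on average and was not called. Of these 24 genes 6 were called higher in contralateral muscle against control as well, where 65 of all 11213 genes were. Chemokine ligands were called higher in 11 of 27 (against 11.2% of all genes), led by Ccl6 (3.12) and Pf4 (2.51), and Ccl2 was called at a low level, 1.5 and 4.61 (1.21).

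Lymphocyte and granulocyte genes were called in few members. Of 17 T cell and cytotoxic genes 3 were called higher (against 11.2% of all genes): Cd4, which rat macrophages also carry, Cd7 and Cd28. In 14 of the 17 the adjusted p was under 0.05, and the median log2 fold change was 0.66. The summed level was 10.4 to 13.7 in control, 18.9 to 19.8 in contralateral and 77 to 124 in injured muscle. In each injured muscle Cd28 made up the larger part of that sum. Cd28 (the T cell costimulator) rose from 2.74 to 3.57 in control muscle to 71.4, 39.0, 85.3 and 59.3 (3.90, SE 0.35), with 2.30 to 4.05 in contralateral muscle. The T cell receptor genes of the same libraries were low, with mean Cd3e of 0.10 and 0.94, Cd3g of 0.43 and 1.36 and Cd3d of 0.21 and 0.71. By limma 0 of 7 B cell genes, 0 of 8 neutrophil genes and 0 of 7 red blood cell genes were called, while 6, 1 and 0 had a p under 0.05, unadjusted and adjusted alike, with a fold change inside the limit. Without rat 74, 2 neutrophil genes were called higher, and 1 without rat 73 or without rat 81. Mast cell genes were called in 3 of 9 (Cpa3, Cma1 and Tpsab1, at 1.81, 1.32 and 1.27), none of them against contralateral muscle, and 6 of 9 were called with TPM as deposited. Of 10 MHC class II genes 5 were called higher, with Cd74 at 59.9 and 197.2. Of 24 interferon-response genes 3 were called, 0 against contralateral muscle and 16 with TPM as deposited.

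Endothelial and cell cycle genes were called higher in shares near the 11.2% of all genes. Of 17 endothelial genes 2 were called and 9 had an adjusted p under 0.05 in limma. The summed level was 229.6 to 273.8 in control and 293.1 to 322.8 in injured muscle. Among smooth muscle and pericyte genes Pdgfrb was called higher (1.17), while Lmod1 and Des, which fibres also express, were called lower, of which 1, Lmod1, with TPM as deposited, where 6 of the 15 genes were called higher. Without the right control muscle of rat 38, 2 genes were called higher and 1 lower, and Des (-0.92) was not called. Acta2, the smooth muscle actin of myofibroblasts, measured 50.1 and 84.5 (0.74, SE 0.23). Schwann cell genes were called in 4 of 13, and in 3 without rat 73. Tendon genes were called in 6 of 12, with Tnmd (tenomodulin) at 19.2, 28.1, 7.25 and 35.8 against 0.73 to 2.06. Cell cycle genes were called in 3 of 22 (Cdk1, Mcm3 and Rrm2), in 1 without rat 81, and mean Mki67 was 0.20 in control and 0.99 in injured muscle. In 17 of the 22 the adjusted p in limma was under 0.05 (median 0.70). Their summed level was 74.1 to 85.4 in control and 97.1 to 124.8 in injured muscle, so the groups did not overlap. The single keratinocyte gene tested was not called.

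The 4 injured muscles thus differed among themselves in a few groups. Rat 81 was highest in Ankrd1, Myog, Chrna1, Clrn1 and Scd and lowest in Postn, with 106.2 against 282.4 to 425.9 in the others. Rat 82 was highest in Cd68, Gpnmb, Apoe and Postn. Rat 73 was highest in Adipoq and in Dlk1. Between pairs of the injured muscles Pearson's r over the tested genes was 0.982 to 0.994, and between control muscles 0.976 to 0.993.

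Fewer genes were called at 28 days than on the earlier days. Against the same control muscles, shared by all 4 days, 4599 genes were called at 3 days (41%), 4004 at 7 days (35.7%), 2393 at 14 days (21.3%) and 1612 at 28 days. Sln, Ankrd1 and Cdkn1a were already at means of 2605, 733.0 and 234.7 at 3 days (n = 3) and were not called between 14 (n = 4) and 28 days, with log2 differences of 0.19 (SE 0.31), -0.04 and 0.00. Clrn1 was at 0.54 at 3 days, then 18.1 at 7 days (n = 8), 43.7 at 14 days and 68.5 at 28 days, and Cd28 was at 2.93, 22, 37.2 and 63.8. Scd was at 4.05 at 3 days, 176.4 at 7 days and 182.0 at 14 days, before the 28 day mean of 138.7. Cilp had means of 15.9, 54.3, 86 and 100.9.

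Adipocyte genes were called higher at 28 days. Adipoq (adiponectin) measured 1.39 to 3.35 in control muscle and 17.9, 6.43, 7.99 and 14.8 in injured muscle (log2 fold change 1.89, SE 0.52, adjusted p 0.00135), after means of 1.66, 2.05 and 3.66 at 3, 7 and 14 days. Plin1 (a coat protein of lipid droplets), Retn (resistin), Cidec and Pck1 were also called at 28 days, with 1.46, 1.41, 1.14 and 1.15. The direct comparison of Adipoq between 28 and 14 days missed the threshold (1.67, SE 0.52, adjusted p 0.051), and 0 of the 10 adipocyte genes tested were called in it (median 0.53). Against control 6 of the 10 were called higher at 28 days (median 1.15, against 11.2% of all genes called higher), and 3 when rat 73 was left out. Against contralateral muscle 4 were called higher (median 0.69, against 7.39% of all genes). Of the same genes 1 was called higher in contralateral muscle against control (median 0.31). Fabp4 and Lpl, which endothelium and fibres also express, measured 354.1 and 99.8 in control and 505.7 and 102.7 in injured muscle.

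Between 14 and 28 days 75 genes differed (0.669%), 14 higher and 61 lower. Matrix genes were among the decreases. Dlk1 (a Notch-like protein of progenitors) went from 75.4 ± 23.8 to 14.9 ± 10.1 (log2 difference -2.46, SE 0.36, adjusted p 2.24e-05), Tnc from 41.0 to 11.2 (-1.98), Cthrc1 from 116.3 to 35.4 (-1.97) and Postn from 829.8 to 287.9 (-1.68). Tnn (tenascin N) completed the 5 largest. Of the matrix lists, 6 matricellular, 4 processing, 3 fibrillar collagen, 3 elastic fibre, 2 proteoglycan, 1 fibril-associated and 1 metalloproteinase or inhibitor gene were called lower, 0 basement membrane genes were, and 0 were called higher. Col1a1 went from 1507 to 724.2 (-1.09, adjusted p 0.0676) and was not called. The count rested on single muscles: 39 genes were called without 1 of the 14 day muscles (replicate 3), 49 without rat 81 and 114 without rat 82, and 18 with the low-complexity libraries kept in.

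Fewer genes were higher at 28 than at 14 days. Calml3 (a calmodulin-like protein) measured 0.91 ± 0.37 at 14 days and 3.51, 7.08, 16.9 and 8.61 at 28 days (log2 difference 2.24, SE 0.27, adjusted p 2.4e-07). Mir3555, Cst7 (cystatin F, of cytotoxic and myeloid cells), Anxa8 and Prima1 (which anchors acetylcholinesterase) had 2.20, 1.53, 1.53 and 1.45. Prima1 overlapped the control muscles again, at 12.6 ± 2.0 against 10.3 ± 2.3 in control muscle, after 0.96 at 7 days. Neither the fast fibre nor the glycolysis list had a gene called between 14 and 28 days, with medians of 0.00 and 0.13, after medians against control of -3.29 and -3.39 at 3 days and -1.12 and -1.31 at 14 days.

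**Figure D5:**
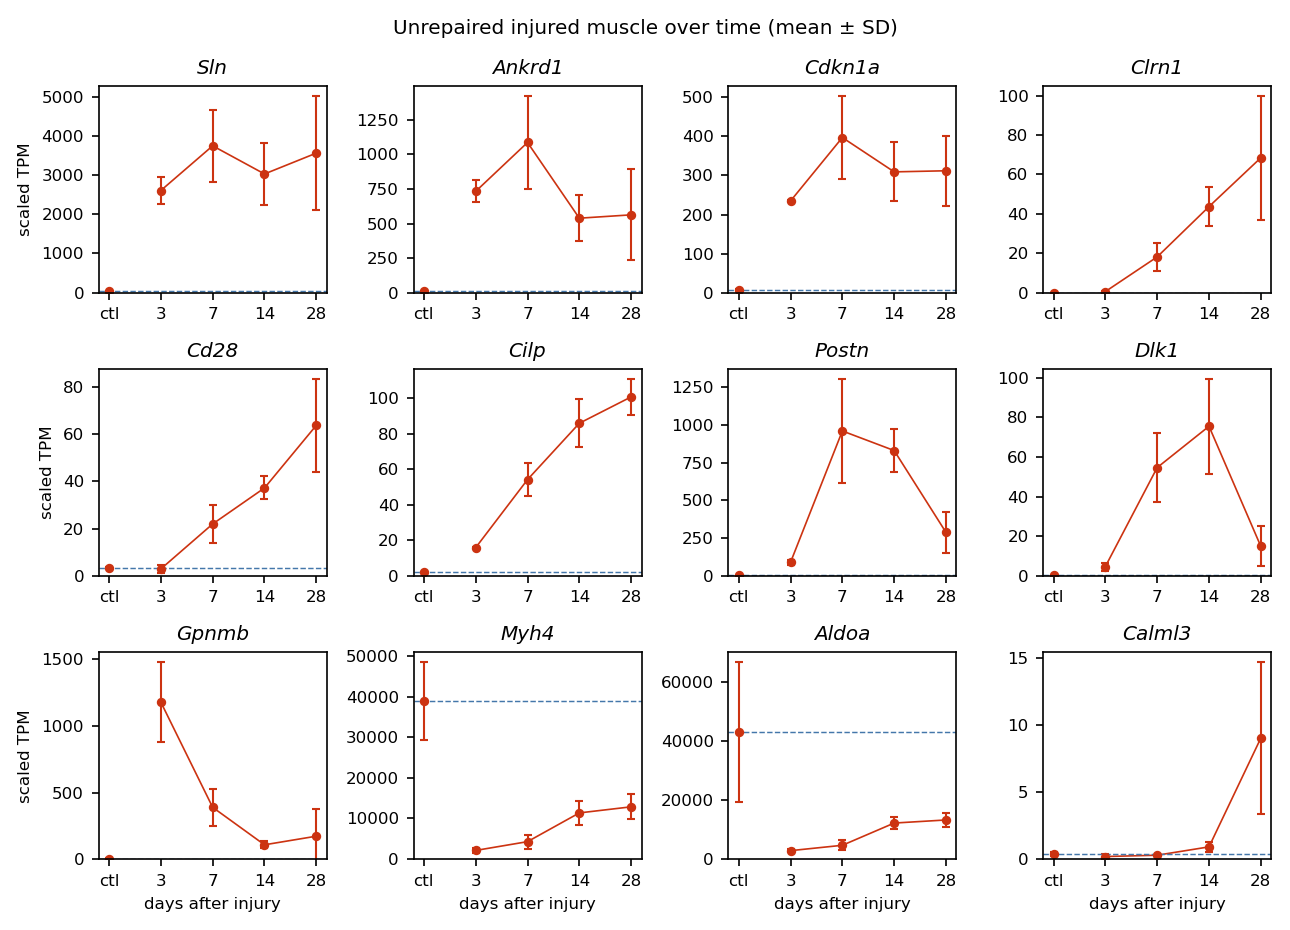
Mean scaled TPM (± SD, bars cut at 0, axes from 0) of 12 genes in control muscle (ctl, n = 4, dashed line) and in unrepaired injured muscle at 3, 7, 14 and 28 days after injury (n = 3, 8, 4 and 4; days are evenly spaced). Sln, Ankrd1 and Cdkn1a stay high, Clrn1, Cd28 and Cilp have higher means on each later day, Postn, Dlk1 and Gpnmb lie below their peaks, and Myh4 and Aldoa remain under the control mean at 28 days.

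The 5 largest differences from the contralateral muscle for increases were genes named above: Sln (6.44), Clrn1, Ankrd1 (5.60), Klk1 (5.50) and Scd. The largest decreases there were Tpx2 (-2.83), Arrdc2 (an arrestin-like protein, -2.38), Pfkfb3 (which makes the activator of phosphofructokinase, -2.33), Cacng7 (-2.15) and Dusp26 (-2.08). Pfkfb3 measured 92.9 to 259.3 in contralateral, 66.6 to 208.4 in control and 24.7 to 51.2 in injured muscle.

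Contralateral muscle was not identical to control muscle. LOC100362981, Acot4 (a peroxisomal thioesterase), Clec2g, Sfrp4 and Mobp were the 5 highest of its 65 higher genes among those whose groups did not overlap, with log2 fold changes of 2.54, 2.31, 1.65, 1.56 and 1.5. Acot4 averaged 0.65 in control, 7.41 in contralateral and 4.47 in injured muscle, so it was higher in both legs (1.75 in injured muscle). Hmgn5, Fos (an immediate early gene), Cacng2, Odf3l2 and Pafah1b3 were the 5 lower genes, with Fos at -1.87 (4.29 against 19.5 ± 11.9 in control) and Cacng2 at -1.68. The count of 70 depended on the settings: it was 7 with low-complexity libraries kept, 21 with the compared groups alone in the model, 38 with control muscles averaged per rat, 46 without the right control muscle of rat 38 and 327 with a pseudocount of 0.1. Rat series and operation cannot be told apart in this comparison.

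Minced muscle graft, placed in the defect of 4 other rats, was compared with no repair in the injured muscle at 28 days. The test called 0 genes by limma, and 154 of 11213 had an unadjusted p under 0.05. With no filter 9 genes had an adjusted p under 0.05, with fold changes inside the limit. Sln averaged 3957 ± 2248 with graft and 3559 ± 1462 without (log2 difference 0.05, SE 0.31), Col1a1 796.8 ± 239.1 and 724.2 ± 218.9 (0.13, SE 0.36) and Myh4 12660 ± 4335 and 12870 ± 3085 (-0.07, SE 0.31). The absence of calls does not show that the groups were equal.

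Of 27 genes that the study itself discusses and that were tested, 19 were called higher and 1, Mstn, lower, the last not with TPM as deposited. The study reports them from the same series of samples and does not state how they were chosen, so the count is not independent evidence of a direction.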

How the data were processed

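Each library came from 1 harvested TA, extracted as total RNA and made into a TruSeq library, with the strand setting not given in the sources used here. The authors estimated TPM with Kallisto on Genbank rat build 6.0 and deposited 1 table, of which 16181 symbols were used here, up to Tubb3 in alphabetical order, so later symbols were not analysed. The authors tested counts with DESeq2. TPM keeps no depth, so depth per library is unknown and no counting interval is given. TPM was divided by median-of-ratios size factors, from 10460 genes. Genes whose average passed 1 TPM in any of 17 groups (11213 genes) were fitted on log2(scaled TPM + 1) by limma-trend, with 68 muscles in a single model (residual degrees of freedom 51). A fold change on this scale understates the change of low genes. Replicates are muscles, and p-values measure the spread between these muscles. The 2 control rats gave both legs, and rats 73 and 74 gave an injured and a contralateral muscle, which the alternative with a rat block takes into account. Named were the 20 highest and 15 lowest called genes by log2 fold change, 5 each way in the other comparisons (groups that do not overlap), and list members with the largest, median or smallest change or a defining role. Within lists, genes to print were chosen after their values were seen. The members and lists were chosen with earlier results of these data known. On simulated data the fit recovered 98.8% of 83 genes changed by 1.5 and 100% of 117 changed by 2.5 (log2). These data were independent normal noise around the control means, with the residual spread of each gene. They held no scaling step, no paired muscles and no outlying muscle, so they do not test how the calls depend on those. The alternatives were TPM as deposited, another pseudocount, no filter, a rat block, low-complexity libraries kept, fewer groups in the model, control muscles averaged per rat, each muscle left out, and, chosen after seeing the data, each control rat left out. R 4.3.3, limma 3.58.1, Python 3.11.15 and pandas 2.3.3 were used. For 9 samples the labels gave no group and they were not analysed. Some results are not reported here.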

Additional observations from a re-analysis of the deposited data

Results flagged for a closer look

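Within groups of 4 muscles, a muscle that stood apart by Dixon's criterion was found in 23 of 148 groups tested. For a single group chance alone gives about 1 in 20. The groups are lists and genes of the same muscles and are not independent, so the 23 cannot be read as an excess over chance. The values are summed scaled TPM for lists and scaled TPM for genes, beside the range of the other 3 muscles.

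The right control muscle of rat 38 was high in 8 lists. The values were 1033000 for adult fast fibre genes (others 442500 to 506000), 286700 for glycolysis and glycogen (123600 to 141800), 95720 for the respiratory chain (56310 to 59450) and 73110 for sarcoplasmic reticulum calcium handling (31460 to 37550). They were 14360 for smooth muscle and pericyte markers (5267 to 6087), 8994 for muscle stress genes (7115 to 7395), 7283 for iron and heme genes (3335 to 3802) and 6791 for slow fibre genes (2642 to 3179). Tuba8 was at 1141 (404.1 to 484.7) and Tuba4a at 2584 (791.1 to 1063). Its size factor, 0.398, is also the lowest of the controls, and the part of that factor in these values was not tested. The left control muscle of rat 38 was high in Tmem158, at 1.05 (0.30 to 0.40).

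Among injured muscles, rat 82 was high in lipid-associated macrophage and lysosome genes, at 6473 (2534 to 3138), in iron and heme genes, at 5018 (3255 to 3416), and in Gpnmb, at 478.6 (56.2 to 97). The same muscle was low in slow fibre genes, at 1015 (5243 to 5797). Rat 81 was high in junction and denervation genes, at 1391 (941.6 to 953.1), in myogenic genes, at 1380 (1025 to 1052), and in atrophy genes, at 2585 (2267 to 2320). In rat 81 Ankrd1 was at 1057 (370.4 to 431.7), Ctxn3 at 184.7 (66.3 to 68.7) and Clrn1 at 115.5 (50.6 to 56.4). Rat 73 was high in Schwann cell and nerve genes, at 219.5 (82.8 to 105.3), and low in Sfrp4, at 54.8 (91.8 to 95.1).

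Between 14 and 28 days after injury without repair 75 genes differed in the limma test of that difference, 14 higher and 61 lower.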

How the results depend on the processing

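None of the 35 genes named by size against control changed direction under any alternative that was run. The medians of some lists changed sign with TPM as deposited, among them fatty acid oxidation (-0.49 to 0.18) and calcium handling (-0.54 to 0.13). The cause of the changes below was not tested, except that an adjusted p without the fold limit calls more genes by construction. With a pseudocount of 0.1 the called genes numbered 2798 against control (1612 as reported), 1945 against contralateral muscle (1015), 327 for contralateral muscle against control (70) and 155 between 14 and 28 days (75). By adjusted p alone they numbered 7727, 6679, 786 and 506. With TPM as deposited 1600 genes were called against contralateral muscle, and against control 99% of the calls were higher in place of 78%. With low-complexity libraries kept, 7 genes were called for contralateral muscle against control and 18 between 14 and 28 days, and against control 1906 higher and 25 lower. With the compared groups alone in the model 21 genes were called for contralateral muscle against control, and 38 with control muscles averaged per rat. Leaving out each muscle in turn gave 1434 to 1791 genes against control, 908 to 1108 against contralateral muscle, 46 to 87 for contralateral muscle against control and 39 to 114 between 14 and 28 days. The comparison of graft with no repair called 0 genes throughout. Muscles are paired by animal in the control group and, for rats 73 and 74, across injured and contralateral muscle. With rat as a random block (within-rat correlation 0.058) 1611, 1011, 69, 76 and 0 genes were called in the 5 comparisons, so the replicate block moved no count by as much as 1.5 times. Without control rat 37 there were 1905 genes against control, 606 of them lower (354 as reported), and without rat 38 there were 1510, 283 of them lower, both chosen after seeing the data. With each muscle left out in turn 993 of the higher and 192 of the lower genes were called every time. Of 595 pairs of a named gene and an alternative, 588 kept the call and 7 lost it: Dusp26, Tuba4a, Chac1, Cacng7, Lpin1 and Slc25a25 with low-complexity libraries kept, and Slc25a25 without control rat 37.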
